A study of Luffa aegyptiaca with 4 samples.

Results

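The transcripts described here are those of Luffa aegyptiaca, the sponge gourd, that were detectable in control samples and, on the log2(FPKM + 1) scale, at least 32-fold higher under heat stress. RNA-seq profiles came from 2 control and 2 heat-stressed samples, described by the labels as biological replicates 1 and 2 of each. The source is labelled tissue, with no genotype, organ, temperature or duration. Nothing in the labels states whether replicates came from separate plants, so any p-value measures only the spread between these libraries. The values are FPKM, fragment counts divided by the length of the transcript and by the mapped fragments of its library, so that levels can be set side by side between transcripts. Their sum lay between 551921 and 599611 per library, and read depth is unknown. Members were rows that carry no lipoxygenase name, stood above 0 in at least 1 control library, averaged at least 1 FPKM across the libraries, and had a mean log2(FPKM + 1) at least 5 higher under heat than in control. They numbered 117 of 48619 rows, or 0.643% of the 18186 rows that reached the minimum mean. The minimum mean removed 0 rows that met the other conditions. A further 52 rows were listed at 0 in both controls and met the rest of the rule; with them, 169 rows (0.929% of those tested) were higher under heat by at least 5. With a pseudocount of 0.1 in place of 1, which compresses low values less, 224 would qualify.

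Plants answer heat with a rapid transcriptional programme. Heat shock transcription factors, held inactive in unstressed cells, are released when proteins begin to unfold, and switch on genes for molecular chaperones that hold, refold or disaggregate damaged proteins. Many of these chaperone genes are nearly silent at normal temperature, and small heat shock proteins in particular form families whose genes often lie close together in plant genomes. The table pairs none of the 117 members with a gene name: each is a number, of the form Luffa_aegyptiaca45870.t01, written below as transcript 45870. No role is therefore given to any of them, and none of the heat response genes or tissue markers listed for the purpose could be matched to a row. No sequence of a member was used here.

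The change between heat and control chose the members, so their levels and changes are a description and carry no test. All 117 passed the test applied to all rows (limma, adjusted p under 0.05, called higher in 30.9% of the tested rows), and in all 117 both heat libraries were above both controls, as in 37.5% of the tested rows. Nothing is read from these counts, because the rule fixed them. In bulk tissue, more cells of a type and more RNA per cell cannot be told apart.

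As a group the members went from a trace of the transcriptome to a large part of it. Summed over members, FPKM came to 296 and 314 in the control libraries and to 83869 and 74145 in the heat libraries, replicate 1 first. That was 0.0529% and 0.0553% of summed FPKM in the controls against 14.0% and 13.4% under heat. The 52 rows that met the same change but were listed at 0 in both controls took 1.96% and 2.56% under heat. The 117 detectable members thus held the larger part of the heat FPKM of these 2 sets. They were also more numerous, and 20 of them had a heat mean of at least 1000 FPKM, against 1 of the 52. The median change was larger in the 52, at 7.24 against 6.65. The median member stood at 0.567 and 0.597 FPKM in the control libraries and at 246.6 and 259.6 FPKM in the heat libraries. The median tested row had 10.01 and 9.87 FPKM in the controls and 7.99 and 8.39 FPKM under heat. None of the 1000 most abundant rows of either control library was a member. Under heat, members made up 91 and 94 of the 1000 most abundant rows, 29 and 34 of the 100 most abundant, and 6 of the 10 most abundant, the same 6 in both libraries.

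**Figure D1:**
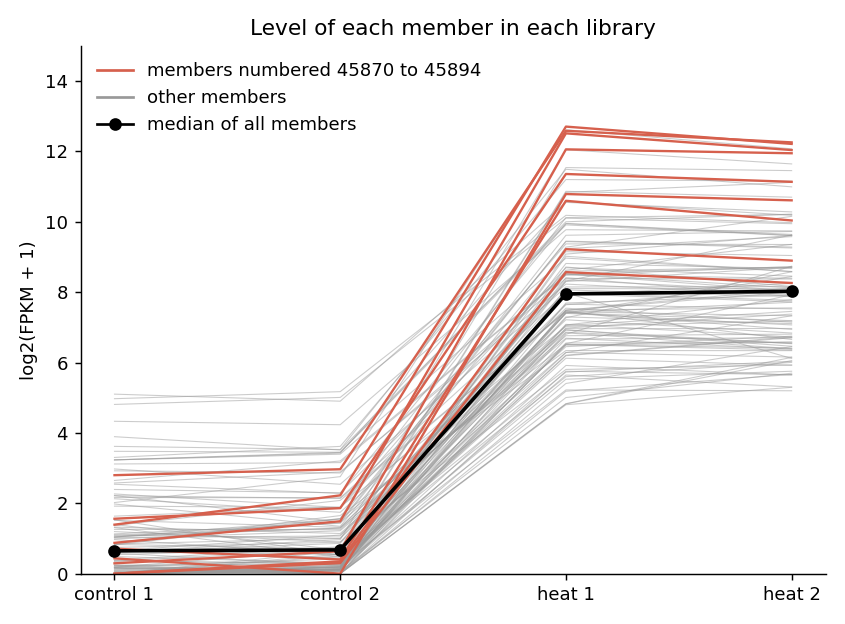
Level of each of the 117 members in the 4 libraries, on the log2(FPKM + 1) scale. Each thin line is 1 member, red lines are the 9 members numbered 45870 to 45894, and black points are the median over members. The highest control value of any member was 35.1 FPKM and the lowest heat value 26.9 FPKM. No single member overlapped between the groups, which followed from the rule. Both heat libraries were above both controls in 37.5% of all tested rows.

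The induced FPKM was concentrated in few members. The 10 most abundant held 50.02% of the members' heat FPKM (mean of the 2 heat libraries), the 20 most abundant 67.6% and the 50 most abundant 88.1%. In all, 91 members reached a heat mean of 100 FPKM and 20 reached 1000 FPKM, and the heat means ran from 32.6 to 5720 FPKM.

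The most abundant member under heat was transcript 45870, with control values of 1.63 and 3.68 FPKM and heat values of 6686 and 4754 FPKM. It held rank 2 and rank 3 among all rows of the respective heat libraries and alone took 1.12% and 0.861% of their summed FPKM. Transcript 45892 had 5.96 and 6.82 FPKM in control and 6155 and 4900 FPKM under heat. Both were far above their control values in each heat library, and both were higher in heat replicate 1 than in replicate 2. Transcript 18455 went from 3.06 and 5.76 FPKM to 6278 and 4317 FPKM. Transcript 40413 went from 1.06 and 1.95 FPKM to 4234 and 3204 FPKM. These 4, with transcripts 45871 and 45876 of the same number range as 45870, were the 6 members among the 10 most abundant rows.

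Ordered by size, the changes ran from 5.01 to 11.54 on the log2(FPKM + 1) scale, with a median of 6.65, where the median of all tested rows was -0.20. Of the members, 76 were higher by at least 6, 28 by at least 8 and 8 by at least 10. This scale compresses the change of rows near or under 1 FPKM. As a ratio of mean FPKM, heat over control, the 79 members above 0 in both controls ran from 33.1-fold to 10528-fold with a median of 206-fold, and 15 of them exceeded 1000-fold. The largest ratio was that of transcript 45871, listed at 0.226 and 0.555 FPKM in control. Behind it and transcript 45876 in the order of change came transcript 37247, which had 0.532 and 0.957 FPKM in control and 2982 and 2808 FPKM under heat, a change of 10.71. Transcript 9146 was listed at 0 in control replicate 1 and at 0.564 FPKM in replicate 2, and reached 1829 and 2226 FPKM under heat, a change of 10.66. No ratio is given for it or for the other members listed at 0 in a control, since an exact 0 in such a table may come from an estimate that failed.

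At the threshold, the 2 members just inside were very unlike in level. Transcript 38477 went from 0.0606 and 0 FPKM to 26.9 and 38.3 FPKM, with a change of 5.01. Transcript 8847 went from 30.4 and 35.1 FPKM to 1163 and 1007 FPKM, with again a change of 5.01. Just outside lay transcript 9301, which stood at 107 and 125 FPKM in control and at 3947 and 3456 FPKM under heat, a change of 4.99. Next to it came transcript 18364, at 7.34 and 8.82 FPKM in control and 279 and 283 FPKM under heat, a change of 4.96. In all, 96 rows that met the other conditions had a difference between 4 and 5.

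Basal expression varied widely among the members, from a control mean of 0.00218 FPKM to one of 32.7 FPKM. Of the 117, 67 had a control mean under 1 FPKM, and 8 lay at 10 FPKM or above. These 8 had heat means between 866 and 2461 FPKM and a median change of 5.78. The 42 members between 1 and 10 FPKM in control had heat means from 80.05 to 5720 FPKM, held 52.0% of the members' heat FPKM and had a median change of 6.12. Below 1 FPKM, the 34 members with a control mean of at least 0.1 FPKM had a median heat mean of 193 FPKM and a median change of 7.12. The 33 members under 0.1 FPKM had a median heat mean of 167 FPKM and a median change of 7.18, and none of their heat means reached 1000 FPKM. The rule asks for a higher heat level where the basal level is higher, so the order of these medians is not independent of it.

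The 4 members with the highest control means were transcripts 8847, 7355, 21843 and 30611. Transcript 7355 had 33.4 and 28.9 FPKM in control and 1501 and 1245 FPKM under heat, a 44.1-fold difference. Transcript 21843 went from 27.1 and 31.2 FPKM to 1100 and 986 FPKM, and transcript 30611 from 19.1 and 17.8 FPKM to 876 and 856 FPKM. The groups of each were far apart, and the replicates within a group differed little by comparison.

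**Figure D2:**
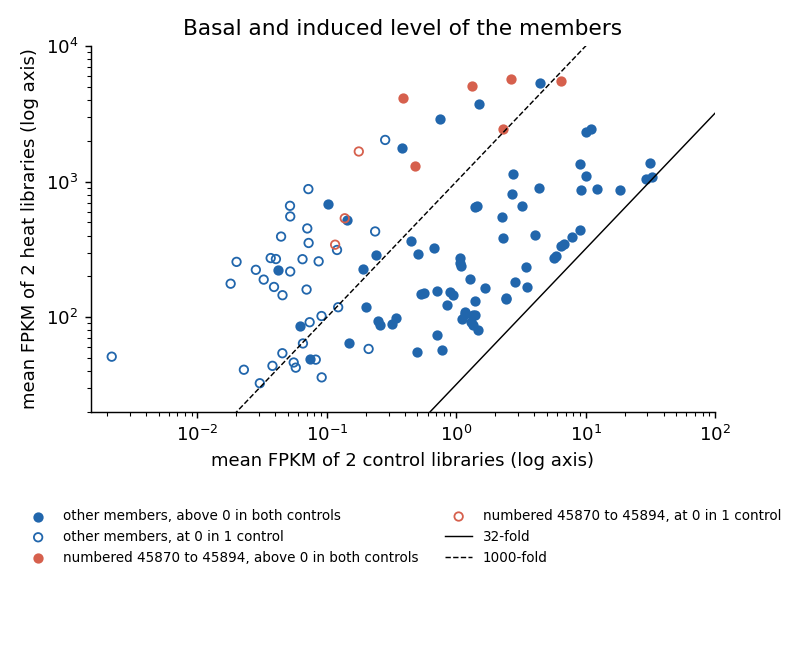
Mean FPKM of the 2 heat libraries against mean FPKM of the 2 control libraries, 1 point per member, both axes logarithmic. Open points were listed at 0 in 1 control, red points are the members numbered 45870 to 45894, and the lines mark 32-fold and 1000-fold. Of the 79 filled points, 15 lie above the 1000-fold line.

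Detection in control often rested on 1 library. Of the 117 members, 79 were above 0 in both controls and 38 in only 1. Control replicate 1 was at 0 for 29 of these, whose values in replicate 2 ran from 0.00435 to 0.564 FPKM with a median of 0.130. Control replicate 2 was at 0 for the other 9, whose values in replicate 1 ran from 0.0361 to 0.353 FPKM. Over the whole table, 1336 rows were at 0 in control replicate 1 alone and 1101 in replicate 2 alone, a more even split than the 29 and 9 among the members. The 38 held 15.2% of the members' heat FPKM, with a median heat mean of 203 FPKM against 284 FPKM for the 79. Without control replicate 2, 90 rows met the rule, of which 87 were among the 117.

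Which heat library was higher was not used by the rule. Of the 79 members above 0 in both controls, 55 were higher in heat replicate 1 and 24 in replicate 2, with a median difference of 0.17 in log2(FPKM + 1). Of the 38 listed at 0 in 1 control, 13 were higher in replicate 1 and 25 in replicate 2, with a median difference of -0.29, replicate 1 minus replicate 2. By basal level, 24 of the 33 members with a control mean under 0.1 FPKM were higher in replicate 2. Replicate 1 was the higher for 21 of the 34 members between 0.1 and 1 FPKM, for 31 of the 42 between 1 and 10 FPKM and for 7 of the 8 above. Among the 52 rows listed at 0 in both controls, 37 were higher in replicate 2. The 3178 other tested rows whose heat mean reached that of the lowest member had 63.6% higher in replicate 1. The heat libraries lay at least 1 apart on the log2(FPKM + 1) scale for 10 members (8.55%, against 0.692% of those 3178 rows). All 10 were listed at 0 in 1 control, and 9 of them were higher in heat replicate 2.

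The largest gaps were those of transcripts 48464 and 24124. Transcript 48464 had 0 and 0.0808 FPKM in control and 111 and 426 FPKM under heat. Transcript 24124 had 0 and 0.139 FPKM in control and 252 and 68.4 FPKM under heat. The higher heat library was replicate 2 for the former and replicate 1 for the latter, and both stayed far above their control values. In control, the largest gap between replicates was that of transcript 24121, at 1.89 and 0.439 FPKM. With 2 libraries a group, the difference between the heat libraries was not tested.

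**Figure D3:**
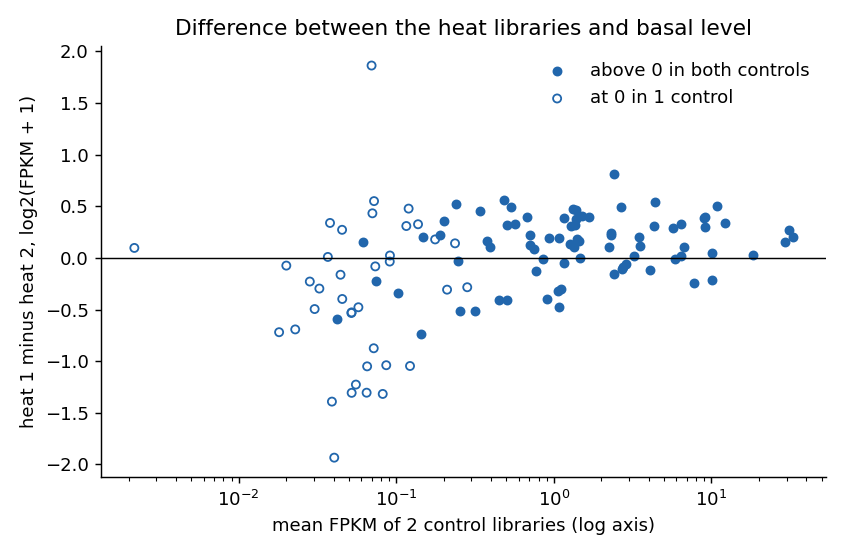
Difference between heat replicate 1 and heat replicate 2 in log2(FPKM + 1), against the mean FPKM of the 2 control libraries on a log axis, 1 point per member. Open points were listed at 0 in 1 control. Points at least 1 away from the zero line are all open, and 9 of these 10 lie below it.

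Some members had close ID numbers. Nothing in the table or labels says whether the numbers follow the order of genes in the genome, and positions were not analysed. Of the 117 members, 32 had another member within 5 numbers, 23 of them at a distance of 1, while the median step from one member to the next was 223 numbers. Chained by steps of at most 5, they formed 11 groups of 2, 2 groups of 3 and 1 group of 4, and the other 85 members stood alone. Without control replicate 2, 18 members had another within 5 numbers. In the 12 pairs of consecutive numbers, the changes of the 2 members differed by a median of 0.86 on the log2(FPKM + 1) scale, and by between 0.17 and 3.89. How reads shared between similar neighbouring copies were assigned is not stated, so the values of single members of such groups are uncertain.

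With steps of up to 10 numbers allowed, a distance set after the data had been seen, 3 of these groups joined into one between numbers 45870 and 45894, where 9 of 25 consecutive rows were members (7 without control replicate 2). They held 4, 2 and 3 members at steps of at most 5. The 9 together took 4.98% and 4.25% of summed FPKM in heat replicates 1 and 2, against 0.00207% and 0.00288% in control replicates 1 and 2, and they held 33.8% of the heat FPKM of all members. Of the 10 members most abundant under heat, 5 were here. Without them, the members' share of summed FPKM was 9.09% ± 0.127 (SD, n = 2) under heat, against 13.7% ± 0.391 with them. Their median change was 9.76, against 6.49 for the members outside. No control value in the group exceeded 6.82 FPKM, no heat value was under 305.9 FPKM, and all 9 were higher in heat replicate 1.

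Within the group, 4 members stood at the low end of the numbers. Transcript 45871 went from 0.226 and 0.555 FPKM in control to 4270 and 3954 FPKM under heat, a change of 11.54. Transcript 45875 went from 0.353 and 0 FPKM to 1770 and 1563 FPKM. Transcript 45876 went from 0.835 and 1.81 FPKM to 5854 and 4212 FPKM. Together with transcript 45870, these had the 4 changes from 10.48 upward within this group. In the middle were transcripts 45882, at 0.636 and 0.322 FPKM in control and 1549 and 1051 FPKM under heat, and 45884, at 1.95 and 2.64 FPKM in control and 2628 and 2251 FPKM under heat. At the upper end, transcripts 45893 and 45894 were much less abundant than their neighbour 45892. The former stood at 0 and 0.232 FPKM in control and 379 and 306 FPKM under heat. The latter stood at 0 and 0.275 FPKM in control and 597 and 476 FPKM under heat.

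The 16 other rows among these 25 numbers did not share one direction. Of them, 4 were listed at 0 in every library, 3 were above 0 but under the minimum mean, and 9 were tested. Of the 9, 4 rose, 4 fell and 1 did not pass (limma, adjusted p under 0.05, called higher in 30.9% and lower in 42.5% of all tested rows). The highest of those that rose was transcript 45874, from 5.26 and 4.74 FPKM to 151 and 124 FPKM, a change of 4.52 that leaves it just short of the members (limma, adjusted p = 5.61e-06). Transcript 45888 fell from 42.6 and 41.1 FPKM to 16.3 and 15.6 FPKM (change of -1.34, limma, adjusted p = 0.000116). Rows that rose and rows that fell therefore lay between the members in the numbering.

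**Figure D4:**
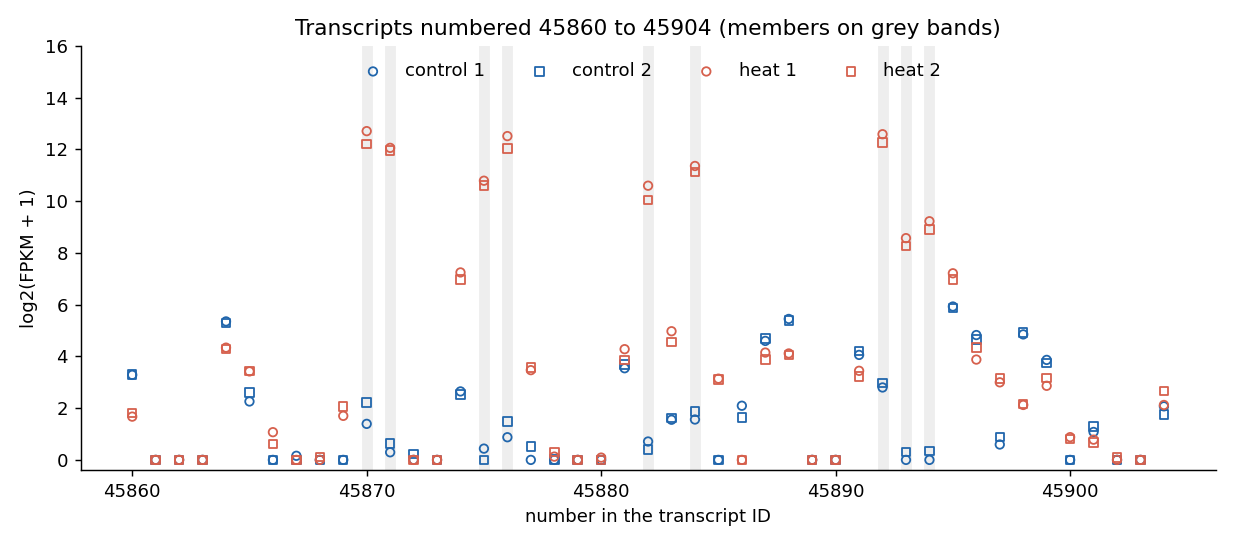
Level of each transcript numbered 45860 to 45904 in the 4 libraries, as log2(FPKM + 1) against the number in its ID. Grey bands mark the 9 members. The lowest heat value of the members is 305.9 FPKM, and the highest among the other rows is the 151 FPKM of transcript 45874.

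Another group of 3, transcripts 4356, 4357 and 4360, was far less abundant. Transcript 4356 went from 0.116 and 0.0888 FPKM to 604 and 764 FPKM, with a change of 9.27. Transcript 4357 went from 0.164 and 0 FPKM to 27.5 and 69.9 FPKM, with a change of 5.38. Transcript 4360 went from 0 and 0.0401 FPKM to 249 and 263 FPKM, with a change of 7.98. All 3 were higher in heat replicate 2, the reverse of the group around 45870. The 2 numbers in between, 4358 and 4359, were listed at 0 in both controls and stood at 56.5 and 159 FPKM, and at 106 and 196 FPKM, under heat. The 5 consecutive numbers were therefore all far higher under heat, and the rule left out 2 of them for lack of a control value.

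The rows numbered next to members were not chosen by their own change, apart from the exclusion of members, and could be tested. The minimum mean counts heat values too, so it favours rows that rose from near 0. Within 5 numbers of a member, 177 of 435 tested non-members rose under heat and 162 fell (limma, adjusted p under 0.05). That is 40.7% and 37.2%, against 30.9% and 42.5% of all tested rows, with a median change of 0.11 on the log2(FPKM + 1) scale against -0.20. Among those above 0 in a control, 146 of 402 rose (36.3%) and 162 fell (40.3%), against 29.7% and 43.4% of all tested rows above 0 in a control. Within 10 numbers, 295 of 786 rose (37.5%) and 306 fell (38.9%) on the values as deposited, against the same 30.9% and 42.5% of all tested rows. Of the 110 tested non-members with a number 1 away from a member, 72 rose under heat and 20 fell (limma, adjusted p under 0.05), that is 65.5% and 18.18%, against 30.9% and 42.5% of all tested rows. Their median change was 1.32 on the log2(FPKM + 1) scale. Of them, 58 rose by at least 1 at the same threshold of adjusted p (52.7%, against 19.1% of all tested rows). Of the 82 members with such a neighbour, 60 had one that rose. Some of these members had more than 1 such neighbour, so the share of all tested rows is no measure for this count. It was not compared with other rows, and nothing is read from it. At a distance of 2, 36 of 88 rose (40.9%). At distances of 3, 4 and 5 the shares that rose were 32.9%, 24.1% and 30.6%, close to or below the share of all tested rows. The share did not fall steadily: at distances of 6 and 7 it was 42.9% and 41.4%, and at 8, 9 and 10 it was 33.8%, 21.7% and 28.6%. At distances of 41 to 50, 188 of 620 rose (30.3%).

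Some of the adjacent rows were themselves listed at 0 in both controls. Leaving these out, 52 of 89 rose (58.4%) and 20 fell (22.5%), against the 29.7% and 43.4% of all tested rows above 0 in a control. Exclusion of the members removes the strongest changes among adjacent rows, which lowers the share that rose. Of the 72 that rose, 10 had a heat mean above that of the member beside them, and 17 reached 100 FPKM. Their median heat mean was 21.3 FPKM, and as a share of the heat mean of the member beside them the median was 8.52%. The strongest was transcript 37242, listed at 0 in both controls and at 961 and 841 FPKM under heat, next to transcript 37241, which stood at 114 and 83.1 FPKM under heat. Transcript 6357, beside 6356, rose from 42.8 and 39.3 FPKM to 831 and 749 FPKM (change of 4.23, limma, adjusted p = 5.63e-06). The largest fall beside a member was that of transcript 10372, from 42.8 and 46.7 FPKM to 2.82 and 2.56 FPKM (change of -3.63, limma, adjusted p = 8.44e-06). Whether the libraries and their counting kept the strand is not stated, so the values of adjacent rows that overlap or lie antisense to a member are uncertain. Transcripts 45882, 45884, 37242, 6357 and 10372 were named after their values had been seen.

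**Figure D5:**
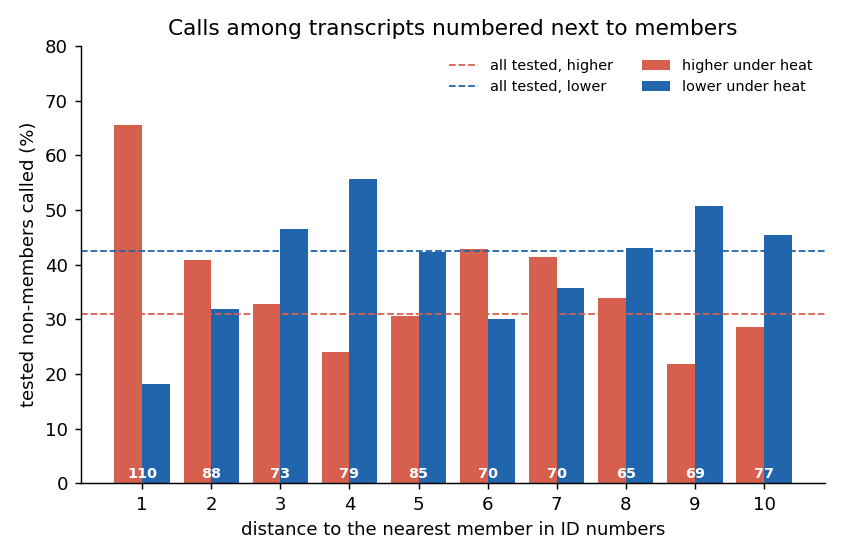
Share of tested non-members called higher (red) or lower (blue) under heat by limma, by the distance to the nearest member in ID numbers. White figures give the number tested, and dashed lines the shares among all tested rows, 30.9% higher and 42.5% lower. The bar at a distance of 1 stands at 65.5% higher.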

How the data were processed

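Total RNA of 4 samples was converted to cDNA and sequenced on an Illumina instrument, per the labels' protocols. The authors deposited 1 table of FPKM values with 1 column per sample. Named in the submitters' processing notes are StringTie 2.0, HISAT2 2.2.1 and fastp 0.20.1, without settings. Genome build and annotation: not given in the sources used here. Low values held no common step (at most 0.791% of rows shared a ratio between libraries), so depth is unknown and no counting interval is given.

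Members were selected by the rule on log2(FPKM + 1). The members, lists and rules for named rows were chosen with earlier results of these data known. All 18186 rows with a mean of at least 1 FPKM were fitted with limma 3.58.1 in R 4.3.3 (group as the only term, mean-variance trend, two-sided, Benjamini-Hochberg, threshold 0.05). The fit was also run on simulated data with normal noise and 200 raised rows. Far more rows changed in these libraries, so nothing about the calls here is drawn from it. Rows named were the members with the 6 highest heat means, the 6 largest changes and the 4 highest control means. The members with the 2 largest gaps between replicates of each group were named too. So were members in groups of 3 or more chained by steps of at most 5 ID numbers, and the 2 rows on either side of the threshold. Non-members within 5 numbers inside or beside these ID groups were eligible, and only some of them are named. Of the heat response list and the tissue marker list, 0 rows matched. Alternatives covered the pseudocount, the filter, scaling, the trend, the window of ID numbers, a replicate block and the omission of each library.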

Additional observations from a re-analysis of the deposited data

How the results depend on the processing

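The number of members, 117, was most sensitive to the rule itself. It was 224 with a pseudocount of 0.1, 213 with a change of at least 4 and 76 with a change of at least 6. It stayed within 1.5 times of 117 under every other setting tried, including 3 rescalings, where 131 rows qualified with libraries rescaled by the median of ratios, 116 with quantile normalization and 115 with equal summed FPKM, the last chosen after seeing the data. The median change, 6.65, was 6.45 with the smaller pseudocount, 6.56 after median-of-ratios rescaling or quantile normalization and 6.35 when both controls had to be above 0. The share of summed FPKM under heat, 13.7%, was 12.72% without the most abundant member and 9.09% without the members numbered 45870 to 45894, an alternative chosen after seeing the data. In control, 0.0541%, it was 0.0517% without that group. The neighbours that rose, 177 of 435 within 5 numbers (40.7%, and 37.2% fell), were 72 of 110 within 1 number (65.5%) and 295 of 786 within 10 (37.5%, and 38.9% fell), against 30.9% and 42.5% of all tested rows. The median change of all tested rows, -0.20, came to 0.02 with the median of ratios and to -0.02 with quantiles made equal. After median-of-ratios rescaling 77 of the 110 adjacent rows rose (70.0%, against 37.0% of all tested rows). Of all tested rows 36.2% then fell, and of the 435 neighbours within 5 numbers 199 rose and 139 fell. With quantiles made equal, 35.8% of all tested rows rose and 37.6% fell. The excess of falls over rises among all tested rows therefore depended on the scaling.

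Leaving out 1 library at a time, with members selected anew, gave 90 to 121 members. The median change was then 6.33 to 6.76, the heat share 12.71% to 14.7%, the control share 0.0481% to 0.0767%, and 18 to 30 members had another within 5 numbers. Rows that rose numbered 4353 to 5264, and neighbours that rose 149 to 166; of the adjacent rows 57.5% to 64.2% rose, against 24.1% to 28.9% of all tested rows. With a replicate block, 5563 rows rose against 5617 without it, and 174 neighbours against 177. Libraries with the same number deviated from their group means with a correlation of -0.07 across transcripts, and the labels do not say that numbers pair the samples. Of 168 recomputed changes of named rows, 25 moved by more than the spread between replicates. The omission of 1 library cannot move a change that far, so all 25 came from the pseudocount and the rescalings. Turned signs numbered 0, which the choice of rows with large changes all but fixed. The control values of most members lie under 1 FPKM, and how far depth limits them cannot be stated.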
